A study of Saccharomyces cerevisiae with 16 samples.

Results

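Gene expression before meiotic induction was compared between *ime2Δ* and wild type (WT) cells of *Saccharomyces cerevisiae*, using the 4 arrays at 0 h out of 16 arrays of a time course at 0, 2, 4, and 6 h. The 4 arrays were chosen by their labelled genotype and time, 2 arrays of *ime2Δ* cells (strain YGB221) and 2 arrays of WT cells (strain DSY1089). Both strains were *MAT*a/α diploids of the SK1 background, which sporulates readily, and both carried mutant *arg4*, *his4*, *trp1*, *leu2*, *ura3*, and *lys2* alleles and *LYS2* inserted at *HO*. In YGB221 both copies of *IME2* were replaced by *TRP1*, so the *ime2Δ* cells also differed from WT cells in having *TRP1*. Cells were grown in acetate medium, washed, and placed in sporulation medium, and the 0 h cells were collected at once. Each genotype is a single strain, and the 2 replicates of a genotype came from 2 independent experiments.

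Ime2 is a protein kinase made in meiosis. In diploid yeast starved on a nonfermentable carbon source, Ime1 turns on early meiotic genes, *IME2* among them, and Ime2 acts in the entry into pre-meiotic DNA replication and in the induction of *NDT80*. Ndt80 is the transcription factor of the middle sporulation genes, which serve the meiotic divisions and the making of the spore wall, and Sum1 represses many of these genes in vegetative cells. Acetate medium, in which the cells were kept before 0 h, already favours *IME1* transcription.

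Every value below is a log2 signal over the median of its array unless a difference is named, and every difference is *ime2Δ* minus WT in log2 units with its standard error (SE) from limma. A gene was called when its limma p, adjusted by the Benjamini-Hochberg method over 6254 genes, was under 0.05. On the 4 arrays the median processed signal lay between 9365.4 and 11567.3, and between 6005 and 6160 genes were well above background. Replicates correlated across genes with r = 0.9921 in *ime2Δ* cells and r = 0.9926 in WT cells, where genes are not independent replicates. In each experiment the first number of an array's position on 1 slide differed between the strains, so strain and slide position cannot be told apart. *IME2* was not well above background on either *ime2Δ* array and was at 2.87 and 2.48 on the WT arrays. *IME2* was 6853-fold lower in *ime2Δ* cells when set there at the lowest signal well above background. *TRP1* was at 1.63 and 1.26 in *ime2Δ* cells and at 0.062 and 0.41 in WT cells. Both genes match the labels, and both were left out of everything that follows.

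Before induction, the lists with the highest share of called genes were those of middle sporulation and early meiosis, which were lower in *ime2Δ* cells. Of the 292 called genes 97 were on a list examined and 195 on none. The lists were chosen with earlier results of these data known, so the share of a list that was called is a description and not a test. Of 6254 genes, 292 (4.67%) were called, 204 (3.26%) lower and 88 (1.41%) higher in *ime2Δ* cells. The fit behind these calls did not pair the arrays by replicate number. With the replicate number as a block, 581 genes were called, 348 lower and 233 higher. With quantile normalization the split was 134 lower and 112 higher. The lower differences were also the larger ones, and 59 genes were lower by 4-fold or more, against 4 genes higher by that much. The median difference of the lower genes was −1.31 and that of the higher genes 1.03, while the median over all genes was −0.014. The *ime2Δ* and WT arrays did not overlap for any of the 292 called genes, but neither did they for 53.9% of all genes. Of the called genes, 59 were open reading frames (ORFs) with no gene name, 44 of them lower.

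**Figure D1:**
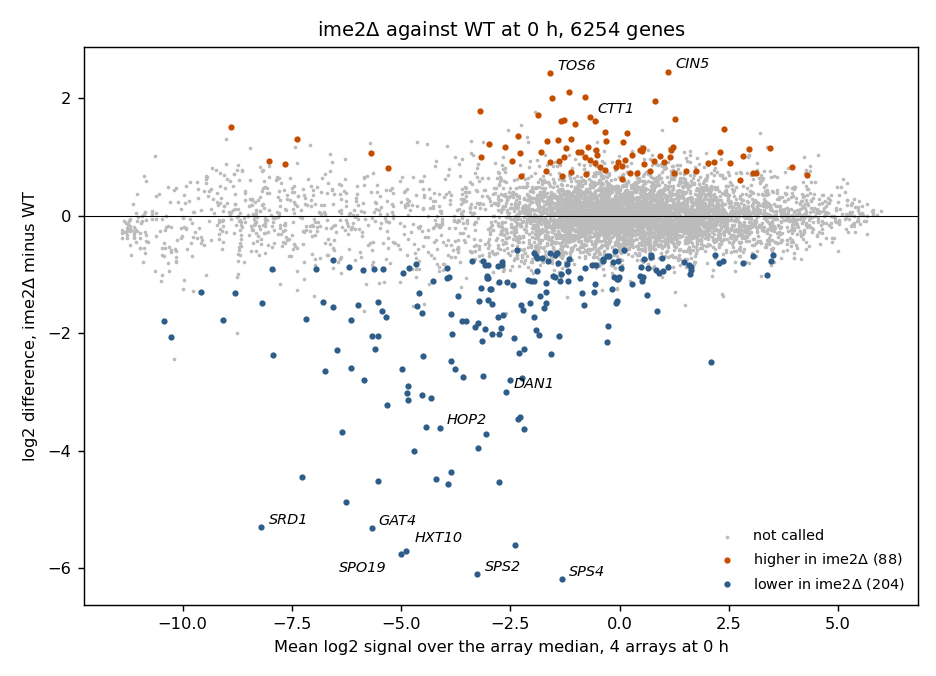
Log2 difference at 0 h, *ime2Δ* minus WT, against the mean log2 signal over the 4 arrays, with 1 point per gene for 6254 genes. The 204 genes called lower reach −6.19 (*SPS4*), while the 88 called higher stay at or below 2.45 (*CIN5*).

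The lower genes were mostly weakly expressed. Of the 204, 153 were below the array median in both strains, against 47.3% of all genes and 41 (46.6%) of the 88 higher genes. Their median level was −3.50 in *ime2Δ* cells and −1.54 in WT cells. A low level does not mean that no signal was measured, since 281 of the 292 called genes were well above background on all 4 arrays. In these bulk samples, fewer cells that express a gene and less RNA in each cell cannot be told apart.

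Spore wall and prospore membrane genes led the lower genes. *SPS4*, a gene induced in middle sporulation, had log2 signals of −4.22 and −4.62 in *ime2Δ* cells, against 1.51 and 2.02 in WT cells. It differed by −6.19 ± 0.25 (limma adjusted p = 6.98e-09), a 72.9-fold difference. Both WT arrays were above the array median and both *ime2Δ* arrays far below it. *SPS2*, which encodes a cell surface protein needed for the spore wall, was at −6.50 and −6.10 in *ime2Δ* cells, against −0.33 and −0.077 in WT cells, and differed by −6.10 ± 0.21 (limma adjusted p = 5.36e-09). *SPR2*, encoding a putative spore wall protein, was at −4.94 and −5.44 in *ime2Δ* cells and at 0.34 and 0.49 in WT cells, a difference of −5.61 ± 0.23 (limma adjusted p = 6.98e-09). For these 3 genes the replicates of a strain lay far closer to each other than the strains did.

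*SPO19*, encoding a protein of the prospore membrane, was at −8.50 and −7.28 in *ime2Δ* cells and at −2.23 and −2.03 in WT cells, and differed by −5.76 ± 0.48. *PFS1*, which acts in prospore membrane formation, differed by −4.52 ± 0.43. The neighbouring genes *IRC18* and *LOH1*, which act in spore wall assembly, differed by −4.48 ± 0.25 and −4.00 ± 0.26. *LDS1*, a lipid droplet gene of the outer spore wall, differed by −4.37 ± 0.22, and *SPR3*, which encodes a sporulation septin, by −3.95 ± 0.24. The adjusted p of these genes from limma ran up to 2.41e-05, for *PFS1*. None of the arrays of the strains overlapped for these genes, as for every called gene.

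The other leading lower genes encode transporters and DNA-binding proteins. *HXT10*, a putative hexose transporter gene, was at −7.73 and −7.76 in *ime2Δ* cells and at −2.16 and −1.91 in WT cells, a difference of −5.71 ± 0.43 (limma adjusted p = 2.9e-06). *HXT14*, of the same family, differed by −4.56 ± 0.20. Then 4 genes for GATA-type zinc finger proteins followed. *GAT4* was at −8.58 and −8.09 in *ime2Δ* cells and at −3.06 and −2.98 in WT cells, a difference of −5.32 ± 0.29 (limma adjusted p = 1.55e-07). *SRD1* was not well above background on either *ime2Δ* array (limma adjusted p = 7.42e-07). It was 22.9-fold lower there when set at the lowest signal well above background. *ECM23* differed by −4.86 ± 0.40 and *GAT3* by −4.44 ± 0.56 (limma adjusted p = 0.000376). *GAT3* was well above background on 1 of the 2 *ime2Δ* arrays. *GAT3* and *GAT4*, like *SRD1* and *ECM23*, are related in sequence, and whether their probes share signal was not tested.

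Among the 16 lowest genes 1 ORF had no gene name, YPR078C, which was at −5.13 and −4.92 in *ime2Δ* cells and at −0.39 and −0.61 in WT cells, a difference of −4.52 ± 0.18. Its neighbour YPR077C was also called lower, and overlapping signal between the 2 ORFs was not tested. The call of each of the 15 leading named genes held without any single one of the 4 arrays.

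**Figure D2:**
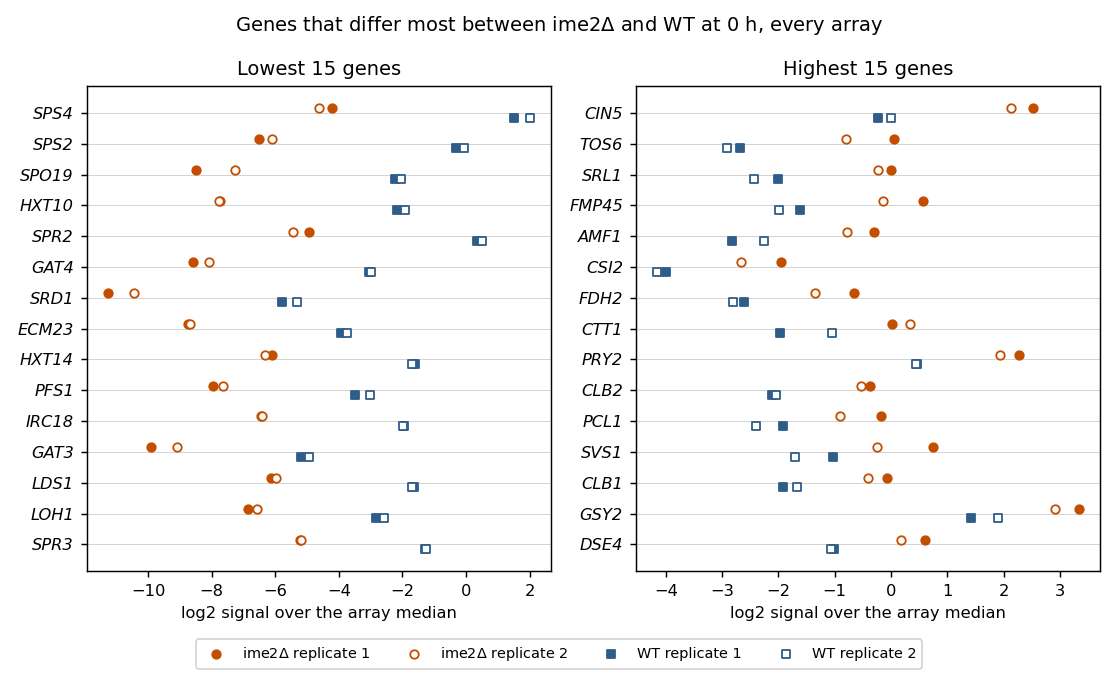
Log2 signal over the array median on each of the 4 arrays at 0 h for the 15 lowest and the 15 highest called genes that have a name, with *ime2Δ* in orange circles and WT in blue squares, filled for replicate 1 and open for replicate 2. The 30 genes were chosen among called genes whose strains do not overlap, which held for all 292 called genes. The gaps are wider on the left, from *SPS4* (−6.19) to *SPR3* (−3.95), than on the right, from *CIN5* (2.45) to *DSE4* (1.43).

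Of a list of 46 middle sporulation genes, 29 (63.0%) were called lower and 0 higher in *ime2Δ* cells, against 3.26% of all genes called lower. The list's median difference was −1.56, and it was −1.48 within replicate 1 and −1.50 within replicate 2. Beyond the genes above, *SPS1* and *SMK1*, which encode kinases of spore formation, were lower by 3.72 and 3.22 on the log2 scale. *SSP2*, needed for the spore wall, fell by 3.43, and *SPR28*, a second septin gene, by 2.80. *AMA1*, which encodes an activator of the anaphase-promoting complex in meiosis, differed by −2.02 ± 0.39. *CDA1* and *CDA2*, the chitin deacetylase genes, differed by −1.93 and −2.35, and *DIT1*, of dityrosine synthesis, by −0.69, the smallest called difference of the list. The call counts ran from 23 to 29 of the 46 genes when 1 of the 4 arrays was left out.

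*NDT80* itself was not called at 0 h. It was at −0.85 and −1.83 in *ime2Δ* cells and at −1.38 and −1.58 in WT cells, a difference of 0.14 ± 0.28 (limma adjusted p = 0.849), and the WT arrays lay between the *ime2Δ* arrays. *SUM1* was at 1.49 and 1.19 in *ime2Δ* cells and at 1.59 and 1.41 in WT cells, a difference of −0.16 ± 0.23 (limma adjusted p = 0.774). A p above the threshold does not show that the strains were alike. The middle genes in WT cells at 0 h were far from their later level. The median level of the list was −3.63 and −3.66 on the *ime2Δ* arrays and −1.47 and −1.57 on the WT arrays at 0 h, and at 6 h it was −2.97 and −3.17 in *ime2Δ* cells, against 4.50 and 5.03 in WT cells.

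Genes of meiotic recombination and chromosome pairing were the next group. Of 33 early meiotic genes measured, 13 (39.4%) were called lower and 0 higher in *ime2Δ* cells, against 3.26% of all genes called lower, with a median difference of −0.90. *HOP2*, needed for pairing of homologous chromosomes, was at −6.07 and −5.77 in *ime2Δ* cells, against −1.79 and −2.84 in WT cells, a difference of −3.61 ± 0.35 (limma adjusted p = 2.61e-05). *MEI5*, whose product helps load the Dmc1 recombinase, was at −6.35 and −6.10 in *ime2Δ* cells and at −2.25 and −3.02 in WT cells, a difference of −3.59 ± 0.35 (limma adjusted p = 3.11e-05). *GMC2* and *SPO16*, which act in assembly of the synaptonemal complex, differed by −2.65 ± 0.28 and −2.47 ± 0.28. The strains did not overlap for any of the 4 genes, as for every called gene.

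Smaller differences were found for *HOP1*, an axial element gene of meiotic chromosomes (−1.91), *MEK1*, the checkpoint kinase gene of meiotic recombination (−2.01), *SPO13*, which acts in the first division (−1.83), *DMC1* (−1.45), and *REC8*, the meiotic cohesin gene (−1.44). Unlike the middle genes, the early genes differed between the experiments. The list's median difference was −1.35 within replicate 1 and −0.48 within replicate 2. All 13 called genes were higher on WT replicate 1 than on WT replicate 2, by a median of 0.74, which was so for 51.4% of all genes and for 14 of the 29 called middle genes. Without WT replicate 1, 6 genes of the list were called, and without *ime2Δ* replicate 1, 7 were.

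**Figure D3:**
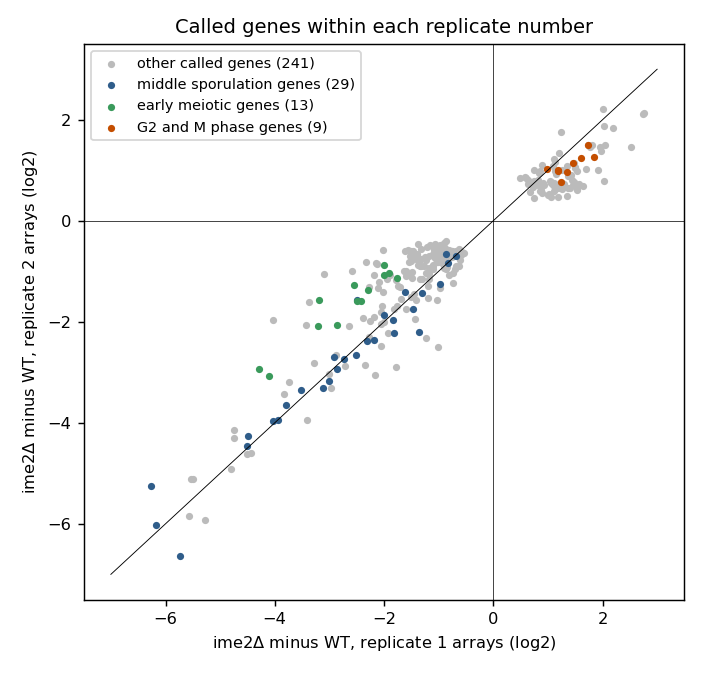
Log2 difference, *ime2Δ* minus WT, of the 292 called genes within the replicate 2 arrays (vertical) against that within the replicate 1 arrays (horizontal), with a line of equal differences. Middle sporulation genes (blue, 29) lie along the line, early meiotic genes (green, 13) lie above it, with a smaller difference in replicate 2, and G2 and M phase genes (orange, 9) are higher in *ime2Δ* cells in both.

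Of 27 regulators of meiotic entry 1 (3.7%) was called lower and 1 (3.7%) higher, against 3.26% and 1.41% of all genes. The lower one was *SLZ1*, a meiotic gene of the mRNA methylation complex (−0.99 ± 0.23). The higher one was *RIM8*, of the pH response pathway that promotes *IME1* expression (0.95 ± 0.18). *IME1* was high in both strains, at 3.66 and 4.49 in *ime2Δ* cells and at 4.33 and 4.37 in WT cells, a difference of −0.28 ± 0.22 (limma adjusted p = 0.535), and the arrays of the strains overlapped. *RIM4*, which encodes an RNA-binding protein of meiosis, was at 1.32 and 1.35 in *ime2Δ* cells, against 2.48 and 1.76 in WT cells, a difference of −0.79 ± 0.23 that did not pass (limma adjusted p = 0.0729). *IME4*, the mRNA methyltransferase gene, differed by 0.40 ± 0.18 (limma adjusted p = 0.23), and *UME6*, whose product binds the promoters of early genes, by 0.065 ± 0.23 (limma adjusted p = 0.918).

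The genes higher in *ime2Δ* cells were led by a transcription factor gene and by genes of the cell surface. *CIN5*, which encodes a basic leucine zipper factor of the stress response, was at 2.52 and 2.13 in *ime2Δ* cells, against −0.24 and −0.0022 in WT cells. It differed by 2.45 ± 0.29 (limma adjusted p = 0.000236), a 5.45-fold difference. The ORF YOR029W, next to *CIN5*, was also called higher (1.07), and overlapping signal was not tested. *TOS6*, a cell wall protein gene, was at 0.059 and −0.80 in *ime2Δ* cells and at −2.68 and −2.91 in WT cells, a difference of 2.42 ± 0.38 (limma adjusted p = 0.00269). *SRL1*, which encodes a cell wall mannoprotein, was at 0.0067 and −0.23 in *ime2Δ* cells and at −2.01 and −2.44 in WT cells, a difference of 2.11 ± 0.36. The ORF YOR248W next to it, 1 of 2 unnamed ORFs among the 17 highest genes, differed by 1.94 ± 0.34, and whether its probe reads *SRL1* was not tested. The other unnamed ORF was YMR031W-A (1.51 ± 0.34).

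More surface and transport genes followed. *FMP45*, which encodes a plasma membrane protein of the eisosome family, differed by 2.01 ± 0.43, and *AMF1*, a membrane transporter gene, by 2.00 ± 0.32. *CSI2*, linked to chitin synthesis, differed by 1.77 ± 0.41, *PRY2*, a secreted sterol-binding protein gene, by 1.65 ± 0.30, and *SVS1*, a cell wall protein gene, by 1.61 ± 0.34. A pair of metabolic genes were also among the highest, *FDH2*, of formate dehydrogenase, at 1.71 ± 0.45 (limma adjusted p = 0.0491) and *GSY2*, of glycogen synthase, at 1.47 ± 0.26. The 15 higher genes depended more on single arrays than the 15 lower ones, and 2 of the 15 kept their call without any single one of the 4 arrays.

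Genes of the mitotic cell cycle made up the largest group among the higher genes on the lists examined. Of 40 genes of G2 and M phase, 9 (22.5%) were called higher in *ime2Δ* cells and 0 lower, against 1.41% of all genes called higher, with a median difference of 0.52. *CLB2*, the main B-type cyclin gene of mitosis, was at −0.37 and −0.53 in *ime2Δ* cells and at −2.11 and −2.04 in WT cells, a difference of 1.62 ± 0.25 (limma adjusted p = 0.00212). *CLB1*, its sister cyclin gene, was at −0.075 and −0.40 in *ime2Δ* cells and at −1.91 and −1.67 in WT cells, a difference of 1.55 ± 0.25 (limma adjusted p = 0.00305). *DSE4*, whose product separates daughter from mother cells, differed by 1.43 ± 0.36, and *CHS2*, the chitin synthase gene of the septum, by 1.30 ± 0.26. The strains did not overlap for these 4 genes, as for every called gene.

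Other called members of the list were *PIR1*, a cell wall protein gene (1.16), *HST3*, a histone deacetylase gene (1.09), *SCW11*, a cell wall glucanase gene (1.09), and *CDC20*, the activator gene of the anaphase-promoting complex (1.00). On all 9, *ime2Δ* replicate 1 was above *ime2Δ* replicate 2. The count was 16 with the replicate block, 1 without *ime2Δ* replicate 1, and 3 without WT replicate 1. Of 52 G1 and S phase genes, 5 (9.62%) were called higher and 3 (5.77%) lower, against 1.41% and 3.26% of all genes. *PCL1*, a cyclin gene of G1 (1.61), *CLN1*, the G1 cyclin gene (1.28), *MCD1*, the mitotic cohesin gene (1.16), and *CDC9*, the DNA ligase gene (0.68), were higher beside *SVS1*, and the higher count was 0 without *ime2Δ* replicate 1 or without WT replicate 2. *RFA1* and *RFA2*, of the single-strand DNA binding complex (−0.74 and −0.59), were among the lower ones. None of 11 histone genes was called by limma, against 4.67% of all genes. An unadjusted limma p under 0.05 was found for 1 histone gene, against 1261 of all 6254 genes.

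**Figure D4:**
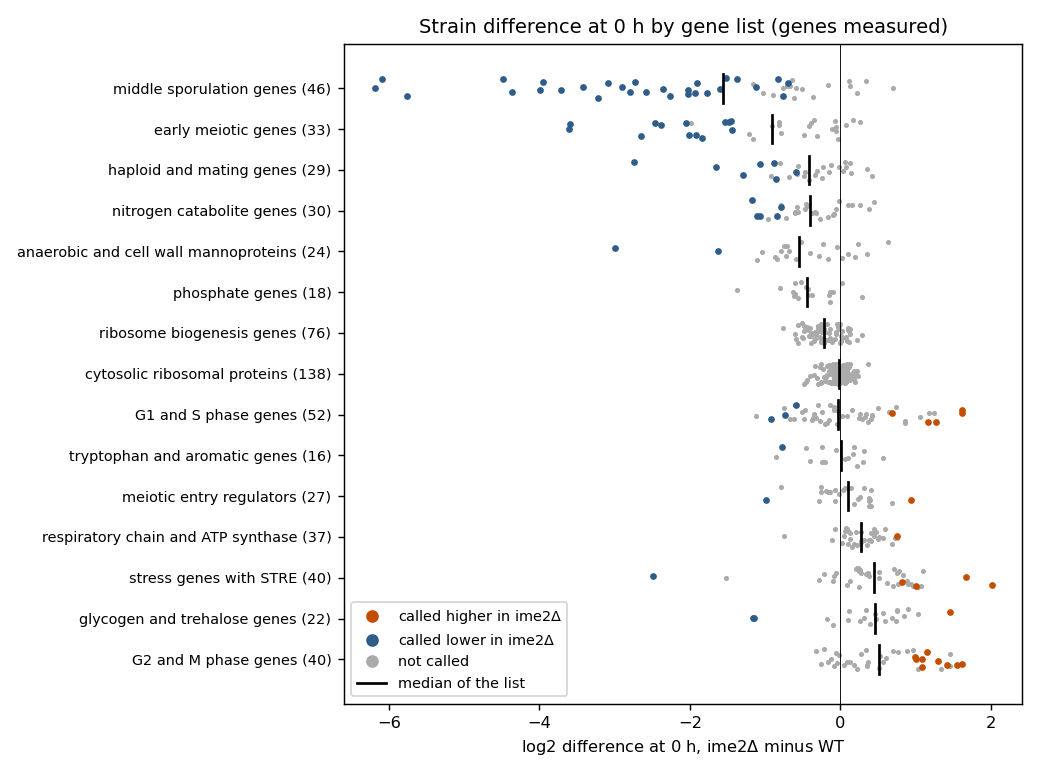
Log2 difference at 0 h, *ime2Δ* minus WT, of each gene on 15 lists, with called genes in colour (orange higher, blue lower) and a bar at the median of the list. Middle sporulation genes (median −1.56) and early meiotic genes (−0.90) lie furthest to the left, and G2 and M phase genes (0.52) furthest to the right.

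Genes of haploid cells and mating were lower in *ime2Δ* cells for 7 of 29 members (24.1%, against 3.26% of all genes), with 0 higher and a median difference of −0.42. *MF(ALPHA)1*, the α-factor gene, was at −5.13 and −4.78 in *ime2Δ* cells and at −1.69 and −2.72 in WT cells, a difference of −2.75 ± 0.40 (limma adjusted p = 0.00143). The a-factor genes *MFA2* and *MFA1* differed by −1.65 ± 0.36 and −1.30 ± 0.26, and *MATALPHA1*, the activator of α-specific genes, by −1.06 ± 0.23. *MATALPHA1* has an identical copy at the silent *HML* locus, whose entry was also called lower, and the 2 cannot be told apart. The other called members were *FIG1*, *STE3*, and *FUS2*, at −0.88 to −0.59. In diploids these genes are repressed, although all 29 were well above background on the 4 arrays. For all 7, as for every gene called lower, WT cells of both replicates were above *ime2Δ* cells of both replicates. The count was 1 without *ime2Δ* replicate 1 or without WT replicate 1, and 2 with quantile normalization.

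Nitrogen catabolite genes showed smaller differences in the same direction. Of 30 measured, 5 (16.7%) were called lower, against 3.26% of all genes, and 0 higher. *DAL1*, the allantoinase gene, was at −2.96 and −3.07 in *ime2Δ* cells and at −1.42 and −2.26 in WT cells, a difference of −1.18 ± 0.30 (limma adjusted p = 0.0454). *DAL3* and *DAL7*, of allantoin breakdown, differed by −1.11 ± 0.25 and −0.84 ± 0.17, and *DUR3*, the urea transporter gene, by −1.07 ± 0.23. *MEP3*, an ammonium permease gene, differed by −0.78 ± 0.20. All 5 were higher on WT replicate 1 than on WT replicate 2, and 0 were called without WT replicate 1 or without *ime2Δ* replicate 1.

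Stress and storage genes leaned towards higher levels in *ime2Δ* cells by their medians, with few calls in either direction. Of 40 genes with stress response elements, 4 (10.0%) were called higher and 1 (2.5%) lower, against 1.41% and 3.26% of all genes, and 33 had a difference above 0, with a median of 0.45. *CTT1*, the cytosolic catalase gene, was at 0.013 and 0.33 in *ime2Δ* cells and at −1.97 and −1.04 in WT cells, a difference of 1.68 ± 0.33 (limma adjusted p = 0.0129). *GAD1*, the glutamate decarboxylase gene, differed by 1.00 ± 0.25 and *DDR48*, a DNA damage response gene, by 0.82 ± 0.20, beside *FMP45* above. *GRE1*, a stress gene of the hydrophilin group, was lower, at −0.13 and 1.83 in *ime2Δ* cells and at 3.25 and 3.43 in WT cells, a difference of −2.49 ± 0.53 (limma adjusted p = 0.0199). The higher count of the list was 12 with the replicate block and 0 without *ime2Δ* replicate 1 or without WT replicate 1. Of 22 glycogen and trehalose genes, 18 had a difference above 0, against 3027 of all 6254 genes, and their median was 0.47. Of the 22, 1 (4.55%) was called higher, *GSY2*, and 2 (9.09%) lower, against 1.41% and 3.26% of all genes. The lower ones were *SGA1*, the glucoamylase gene of sporulating cells (−1.16 ± 0.28), and *NTH2*, a trehalase gene (−1.15 ± 0.27).

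Single genes of other pathways passed as well. *THI4*, of thiamine synthesis, was at −1.46 and −1.27 in *ime2Δ* cells and at 0.91 and 0.66 in WT cells, a difference of −2.15 ± 0.24 (limma adjusted p = 0.000141), and was the only one of 23 thiamine and vitamin B6 genes called. *DAN1*, a mannoprotein gene of anaerobic cells, was at −4.77 and −3.41 in *ime2Δ* cells and at −0.75 and −1.45 in WT cells, a difference of −2.99 ± 0.53 (limma adjusted p = 0.00682). *TIR4*, of the same list of 24, differed by −1.63 ± 0.29, and the list's lower count was 10 with the replicate block and 0 without *ime2Δ* replicate 1 or without WT replicate 1. Smaller called differences were lower for *VEL1* of the zinc list (−1.55), *HXT4*, a hexose transporter gene (−1.25), *SSA3*, an Hsp70 gene (−1.05), *BIO5*, of biotin precursor uptake (−0.92), and *ISU2*, of iron-sulfur cluster assembly (−0.69). They were higher for *ADH5*, an alcohol dehydrogenase gene (1.40), *SER1*, of serine synthesis (0.91), *FRE4*, a ferric reductase gene (1.09), *COX4*, of cytochrome c oxidase (0.75), and *SHM2*, of serine and glycine interconversion (0.70).

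The tryptophan pathway was examined because the strains differ in *TRP1*. Of 16 tryptophan and aromatic amino acid genes 1 (6.25%) was called lower, against 3.26% of all genes. It was *TAT1*, an amino acid permease gene for tryptophan and tyrosine (−0.78 ± 0.20, limma adjusted p = 0.048). Of 13 genes of NAD synthesis from tryptophan 1 (7.69%) was called higher, *BNA3* (0.71 ± 0.18), against 1.41% of all genes. Whether *TRP1* affected other genes was not tested. By limma 0 of 6 strain marker genes and 0 of 10 neighbours of *IME2* and *TRP1* were called, against 4.67% of all genes. With the replicate block 2 neighbours were called lower. An unadjusted limma p under 0.05 was found for 2 markers and 3 neighbours, against 1261 of all 6254 genes. Their differences ranged from −0.13 (*LEU2*) to 0.87 (*HIS4*) for the markers, and from −0.91 (YDR010C) to 0.69 (YJL107C) for the neighbours. Housekeeping lists were likewise without calls by limma, against 4.67% of all genes called. These held 76 ribosome biogenesis genes (3 at an unadjusted p under 0.05, against 1261 of all 6254 genes), 138 cytosolic ribosomal protein genes (0), 70 mitochondrial ribosomal protein genes (9), and 33 proteasome genes (0). No gene was called either among 28 sulfur genes (5), 18 phosphate genes (8), 27 sterol genes (5), and 25 peroxisomal genes (5). The phosphate genes still leaned lower in *ime2Δ* cells, with a median difference of −0.44. Of them 16 were below 0 and 2 above, against 3227 and 3027 of all genes. With the replicate block 4 phosphate genes and 1 or 2 genes each of the sulfur, ribosome biogenesis, mitochondrial ribosomal protein, and peroxisomal lists passed.

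The strain means at 2, 4, and 6 h came from other arrays than the means at 0 h. They are not independent of the 0 h calls, since all 16 arrays set the spread behind every p and successive samples may have been drawn from 1 culture. With the 4 arrays at 0 h alone, 99 genes were called. Of the 204 genes lower at 0 h, 113 (55.4%) were called lower at 2 h, 134 (65.7%) at 4 h, and 139 (68.1%) at 6 h, against 9.05%, 16.9%, and 31% of all genes. Of the 59 genes lower by 4-fold or more, 54 were also called lower at 2 h. Of the 88 higher genes, 16 (18.2%) were called higher at 2 h, 26 (29.5%) at 4 h, and 31 (35.2%) at 6 h, against 4.54%, 14.2%, and 33.1% of all genes, and 31 were called lower at 6 h.

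Strain differences of the gene groups at later times are given as medians over the members called at 0 h, and no test compared the groups. Of the 29 middle genes called at 0 h, 28 were called lower at 2 h, and their median strain differences at 2, 4, and 6 h were −2.98, −6.50, and −9.12. Of the 13 early genes, 9 were called lower at 2 h, while 22, 27, and 13 of all 33 early genes were called lower at 2, 4, and 6 h. The 13 called at 0 h had median differences of −1.63, −1.79, and −0.60 at the same times. For the 9 G2 and M phase genes the medians were 0.84, −0.05, and −1.18 at those times. For the 5 nitrogen catabolite genes they were 0.24, 1.47, and 1.84, so the sign at later times was opposite to that at 0 h.

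**Figure D5:**
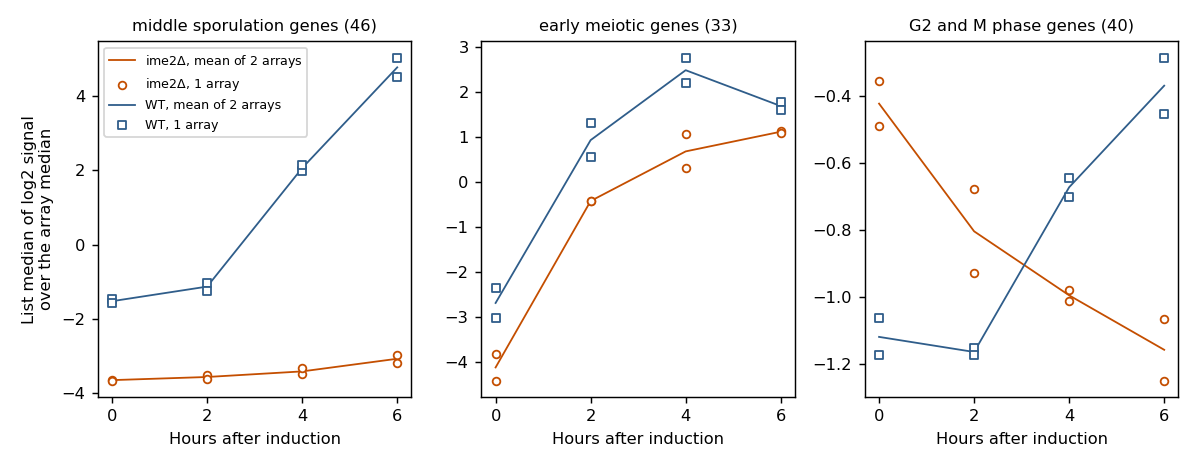
Median log2 signal over the array median of all measured members of 3 lists against hours after induction, with 1 symbol per array and lines through the mean of the 2 arrays of a strain (*ime2Δ* orange, WT blue). The strains are already apart at 0 h in each panel, the middle sporulation genes stay low in *ime2Δ* cells, and the G2 and M phase genes start higher in *ime2Δ* cells (−0.36 and −0.49, against −1.17 and −1.06 in WT cells) and end lower.

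Whether the strain difference at 0 h was of another size than at 2 h was tested directly for all genes. The difference between the 2 contrasts was called for 208 genes (3.33%), and 38 of these were among the 292 genes called at 0 h. *CIN5* was higher by 2.45 in *ime2Δ* cells at 0 h and by 0.27 at 2 h. *TOS6* had differences of 2.42 at 0 h and −0.092 at 2 h. Genes of both directions passed and failed this test. Among the leading lower genes *SPS2* (−6.10 at 0 h and −7.81 at 2 h) passed, with limma adjusted p = 0.00893, and *SPS4* (−6.19 and −7.16) and *SPR2* (−5.61 and −5.53) did not, with limma adjusted p = 0.181 and 0.96. Among the leading higher genes *SRL1* (2.11 and 1.25) and *FMP45* (2.01 and 1.72) did not pass either, with limma adjusted p = 0.474 and 0.889.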

How the data were processed

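The authors amplified total RNA to aminoallyl-labelled antisense RNA, hybridized it to single color Agilent 60-mer arrays, and deposited the spot intensities of Agilent Feature Extraction 10.7.1.1, background-subtracted and not scaled between arrays. The log2 values that the authors deposited after scaling to the median served as an alternative. Here log2 processed intensities were averaged over a probe's 2 spots and the array median was subtracted, leaving out 0 to 13 outlier spots per array. No spot was saturated. Each of 6256 genes has 1 probe; 5756 matched RefSeq and 5234 have a symbol. *IME2* and *TRP1* were left out.

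limma 3.58.1 in R 4.3.3 (lmFit, eBayes) was fitted to 8 groups on 16 arrays (8 residual and 4.58 prior degrees of freedom), so that all times share 1 estimate of the spread. With 2 arrays a group, their number limits the precision, and a p measures the spread between these arrays. Replicate numbers stand for independent experiments, 1 slide each. The main fit did not pair the arrays by replicate number, and only the replicate block, an alternative, did so. Deviations from the group mean correlated at r = 0.424 between strains at 0 h, and at 0.0752 to 0.535 over 28 pairs of groups. Alternatives were other scalings, normexp with an offset of 50, dim probes left out, a replicate block, culture as a random block, the 4 arrays alone, another prior, a minimum log2 difference of 1, and leaving out each array. The fit was run on simulated data with independent noise on each array, which cannot test effects shared by a replicate, slide or culture.

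The genes named are the 15 lowest and 15 highest called genes with a symbol and no overlap between the strains, up to 4 called members of each list with the largest differences, and *IME1*, *RIM4*, *IME4*, *NDT80*, *UME6*, the strain markers and the neighbours of *IME2* and *TRP1*. Others were picked after their values were seen. A gene not well above background in *ime2Δ* cells is given against the lowest signal well above background on those arrays. That signal is not a limit of detection, since *GAT3* was above it on both *ime2Δ* arrays but well above background on only 1. The 4 list members *HED1*, *ARG5,6*, *DUR1,2*, and *ADE5,7* were not matched to a probe. Members and lists were chosen with earlier results of these data known. DNA content data were not analysed here, and most called genes are given only in counts, with a few list members not reported here.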

Additional observations from a re-analysis of the deposited data

Results flagged for a closer look

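For 8 named genes called at 0 h, the difference between the strains was of another size at 2 h, by a test of the difference between both contrasts (limma adjusted p over 6254 genes). *CIN5* differed by 2.45 at 0 h and by 0.27 at 2 h, a change of 2.17 (limma adjusted p = 0.0125). *TOS6* had a change of 2.52 (limma adjusted p = 0.0253), and *CSI2*, at 1.77 and then −0.67, of 2.45 (limma adjusted p = 0.0408). *MCD1* was higher in *ime2Δ* cells by 1.16 at 0 h and lower by 1.35 at 2 h (a difference of −1.35), a change of 2.52 (limma adjusted p = 0.00304). *SPS2* was lower at both times, at −6.10 and −7.81, and its change was 1.71 (limma adjusted p = 0.00893). *THI4* differed by −2.15 at 0 h and by 0.50 at 2 h, a change of −2.66 (limma adjusted p = 0.00129). *DAL7* (−0.84, then 0.66) and *DAL3* (−1.11, then 0.57) had changes of −1.49 (limma adjusted p = 0.00446) and −1.67 (limma adjusted p = 0.0216).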

How the results depend on the processing

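The 292 calls (88 higher, 204 lower) became 581 (233 and 348) with the replicate block, 99 (20 and 79) with the 4 arrays at 0 h alone, and 188 (51 and 137) at a minimum absolute log2 difference of 1, and all 292 remained with the block. With normexp 57 were higher, and with quantile normalization 134 were lower and 54.5% of 246 calls were lower, against 69.9%. Leaving out 1 array gave 80 to 345 calls, 5 to 130 higher and 75 to 215 lower; the fewest calls, 80, came without *ime2Δ* replicate 1, and without WT replicate 1 there were 96 and without WT replicate 2 there were 175. The 208 genes whose strain difference changed from 0 to 2 h became 362 with the replicate block and 359 with culture as a random block, and 65 to 246 without 1 array; the 4 arrays at 0 h give no such value. The 13 early meiotic genes called lower became 7 with the 4 arrays alone and 6 to 15 without 1 array, the middle genes 23 to 29 without 1 array, and the G2 and M phase genes higher 16 with the replicate block, 5 with the 4 arrays alone and 1 to 8 without 1 array. Of 67 named called genes none changed direction under any alternative, but only the other scalings, the deposited values and normexp could have reversed one. The other settings on all arrays or on the 4 arrays alone keep each difference. Without 1 array the sign was fixed, because the strains did not overlap for any called gene. Uncalled genes near 0 changed sign: *UME6* (−0.13 with normexp), *URA3* (−0.013 with the 75th percentile, −0.20 with normexp), and, without 1 array, *IME1* (−0.69 to 0.14), *NDT80* (−0.35 to 0.62), *UME6* (−0.17 to 0.30), *LEU2* (−0.37 to 0.12), *URA3* (−0.043 to 0.054), *GAL3* (−0.16 to 0.078), and *SET4* (−0.052 to 0.18). The cause was not tested.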
